A study of Rattus norvegicus with 65 samples.

Results

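Cyp2c11, Obp3, Mup5, Dhrs7l1, Stac3, Socs2 and Igf1 are 7 genes grouped as growth hormone dependent genes of the male rat liver. No growth hormone was given or measured here, so that dependence is background and was not tested. They are 7 of the 14217 genes, and their 12 probe sets are 12 of the 31099. All were measured in the livers of 65 rats, most of them treated with a chemical and the others untreated controls. The genes were chosen by name with earlier results of the same arrays in view: Stac3, Dhrs7l1, Obp3 and Cyp2c11 had stood out when treated groups were set against their controls. Values in those comparisons are therefore given as a description, with standard errors and without p-values.

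All rats were male Sprague-Dawley animals, 6 weeks old, with 1 array per liver. The genotoxic set holds an untreated control and rats given 2-AAF, 3MeDAB or DEN. The nongenotoxic set holds its own untreated control and rats given 1,4-Dioxane, Clofibrate or DL-Ethionine. The test set holds rats given DCP, ME, SN or Urethane and has no control. Each compound has a short group, labelled 3 hours, and a long group, labelled 72 hours. The treatment protocol describes repeated dosing and autopsy a day later, so the groups are called short and long without a time. The controls carry no time. The 22 groups hold 3 rats each, except DEN short, which holds 2, numbered 2 and 3. The labels call the replicates biological, but they name no litter, cage or vehicle.

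Growth hormone is released from the pituitary in pulses in male rats and more evenly in females. It binds the growth hormone receptor on hepatocytes, the kinase JAK2 phosphorylates STAT5b, and STAT5b enters the nucleus and switches on target genes. Pulses of STAT5b activity keep up a male programme in the liver that includes Cyp2c11, the main male-specific cytochrome P450, and the urinary proteins. Igf1, the circulating growth factor, is the hormone's best known target, and Socs2 and Cish are induced feedback inhibitors of the receptor.

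Levels are given as log2 signal. A difference between groups is given on the log2 scale with its SE, from 1 linear model per gene (limma) fitted over the 41 training arrays or the 24 test arrays. A gene was called when its Benjamini-Hochberg adjusted p over all genes of that comparison was under 0.05. Where a gene has several probe sets, the one with the highest mean was used unless stated. The 3 sets appear to have been normalized apart, judged by their value ranges, so levels are compared only inside a set. Compounds of a set share their control rats. The 11 hepatocyte markers measured each read 9.23 or more in every array, and the mean of the list was 13.18 to 13.82 in all 65 livers. In whole liver, fewer cells of a type and less RNA per cell cannot be told apart.

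Obp3 (alpha-2u globulin, listed under its odorant-binding protein symbol) and Mup5 (major urinary protein) belong to 1 family of small secreted lipocalins, and the start of their genes is nearly the same sequence. Both promoters are shown because their probe sets may share signal. RefSeq promoters (build GRCr8, 250 bases before and 50 after the start, so 300 in all) were given for 6 of the 7 genes. Obp3 lies at chr5:79640626-79640925 and Mup5 at chr5:79999646-79999945, both on the minus strand. Of 281 aligned bases 274 were identical (97.509%). Capitals mark the longest run without a difference, 57 bases.

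Obp3: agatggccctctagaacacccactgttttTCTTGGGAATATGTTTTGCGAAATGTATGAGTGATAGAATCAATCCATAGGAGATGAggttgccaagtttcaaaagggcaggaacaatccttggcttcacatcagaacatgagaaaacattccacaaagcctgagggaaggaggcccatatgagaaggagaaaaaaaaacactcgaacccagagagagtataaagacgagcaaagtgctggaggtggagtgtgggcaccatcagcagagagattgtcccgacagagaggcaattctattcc

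Mup5: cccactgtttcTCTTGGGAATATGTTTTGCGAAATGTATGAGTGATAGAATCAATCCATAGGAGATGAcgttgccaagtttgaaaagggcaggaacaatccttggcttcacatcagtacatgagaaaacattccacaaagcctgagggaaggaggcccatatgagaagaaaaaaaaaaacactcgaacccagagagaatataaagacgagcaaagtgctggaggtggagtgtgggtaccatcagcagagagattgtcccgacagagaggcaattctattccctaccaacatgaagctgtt

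The other pairs of promoters shared runs of 7 to 10 bases. The STAT5 motif TTCNNNGAA, which is its own reverse complement, was found in 0 of the 6 windows. It occurs in 2970 of 33469 RefSeq promoters of the same length, or 8.874%. The absence says only that these letters are not in these windows.

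The 7 genes were set against the control of their own set in 12 treated groups. Of 84 values, 79 were negative, 38 were called lower and 0 were called higher. Over all 11007 genes tested, 7.22% of values were called lower and 9.14% higher. The 12 groups share 6 control rats, so these values are not independent. The median of the 7 differences was -5.26 in 3MeDAB long and -2.99 in DL-Ethionine long. All 7 genes were called lower in both groups, against 17.7% of all genes in 3MeDAB long and 23% in DL-Ethionine long. In 2-AAF long 6 were called lower (16.1% of all genes) with a median of -1.38, and in DEN long 5 (6.31%) with a median of -0.92. All 7 lay below every control rat in 3MeDAB long (24% of all genes), DL-Ethionine long (27.2%) and 2-AAF long (19.3%), and 6 did in DEN long (19.3%). These comparisons had a part in the choice of genes, so nothing is read from their counts.

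**Figure D1:**
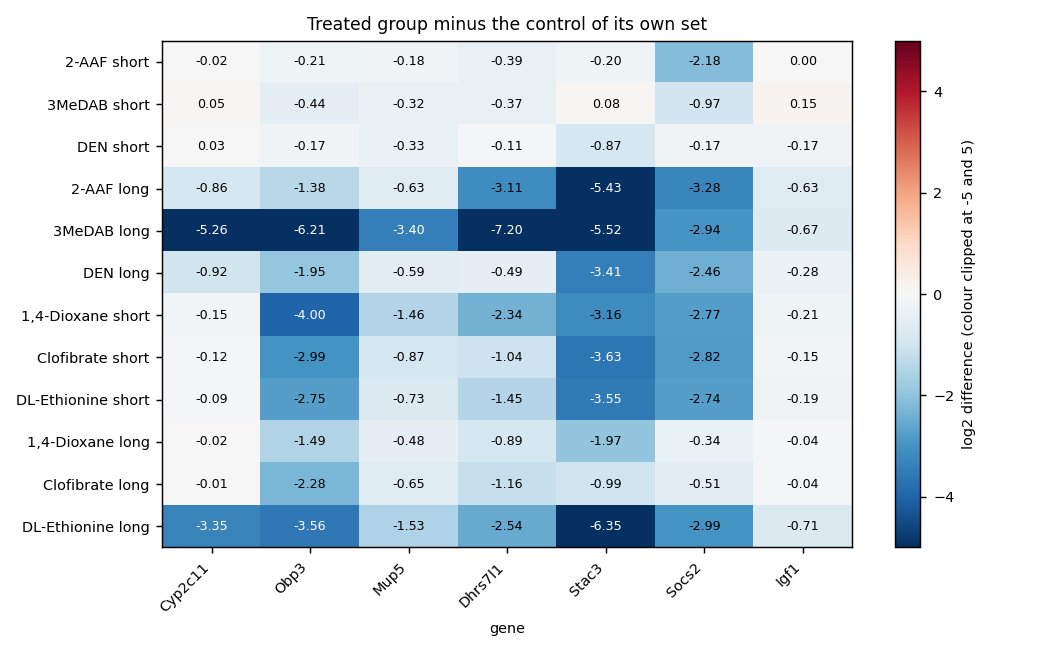
Log2 difference of each treated training group from the control of its own set, in 12 rows, for the 7 genes in columns; the colour is clipped at -5 and 5 and the printed number is the difference. The 3MeDAB long and DL-Ethionine long rows are negative for all 7 genes, and in the 3 nongenotoxic short rows Obp3, Stac3 and Socs2 lie between -4.00 and -2.74 while Cyp2c11 and Igf1 lie between -0.21 and -0.09.

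Among the short groups, Obp3, Stac3 and Socs2 were low after the nongenotoxic compounds. After 1,4-Dioxane short 5 genes were called lower (3.68% of all genes), after Clofibrate short 4 (1.35%) and after DL-Ethionine short 3 (3.05%) and these 3 genes were among them with each compound. In each of the 3 groups 5 genes lay below every control rat (16%, 13.2% and 13.2% of all genes). In the genotoxic short groups 1 gene was called lower with 2-AAF (Socs2, 4.22% of all genes), 0 with 3MeDAB (0.672%) and 0 with DEN (10.3%). In 1,4-Dioxane long and Clofibrate long 0 of the 7 were called, where 0.0727% of all genes were called lower in each. In Clofibrate long 3 genes still lay below every control rat (10.8% of all genes), and in 1,4-Dioxane long 0 did (10.6%). The 3 were Obp3, Stac3 and Mup5, with means of 10.48, 10.67 and 12.69 against 12.76, 11.66 and 13.34 in the control. The medians of the 7 in 1,4-Dioxane long and Clofibrate long were -0.48 and -0.65, against -2.34 and -1.04 in the short groups of the same compounds. With 1 rat or 1 replicate number left out they ranged from -1.13 to -0.35 and -1.28 to -0.53 in the long groups and from -3.11 to -1.52 and -1.81 to -0.77 in the short groups, so the Clofibrate ranges overlap.

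**Figure D2:**
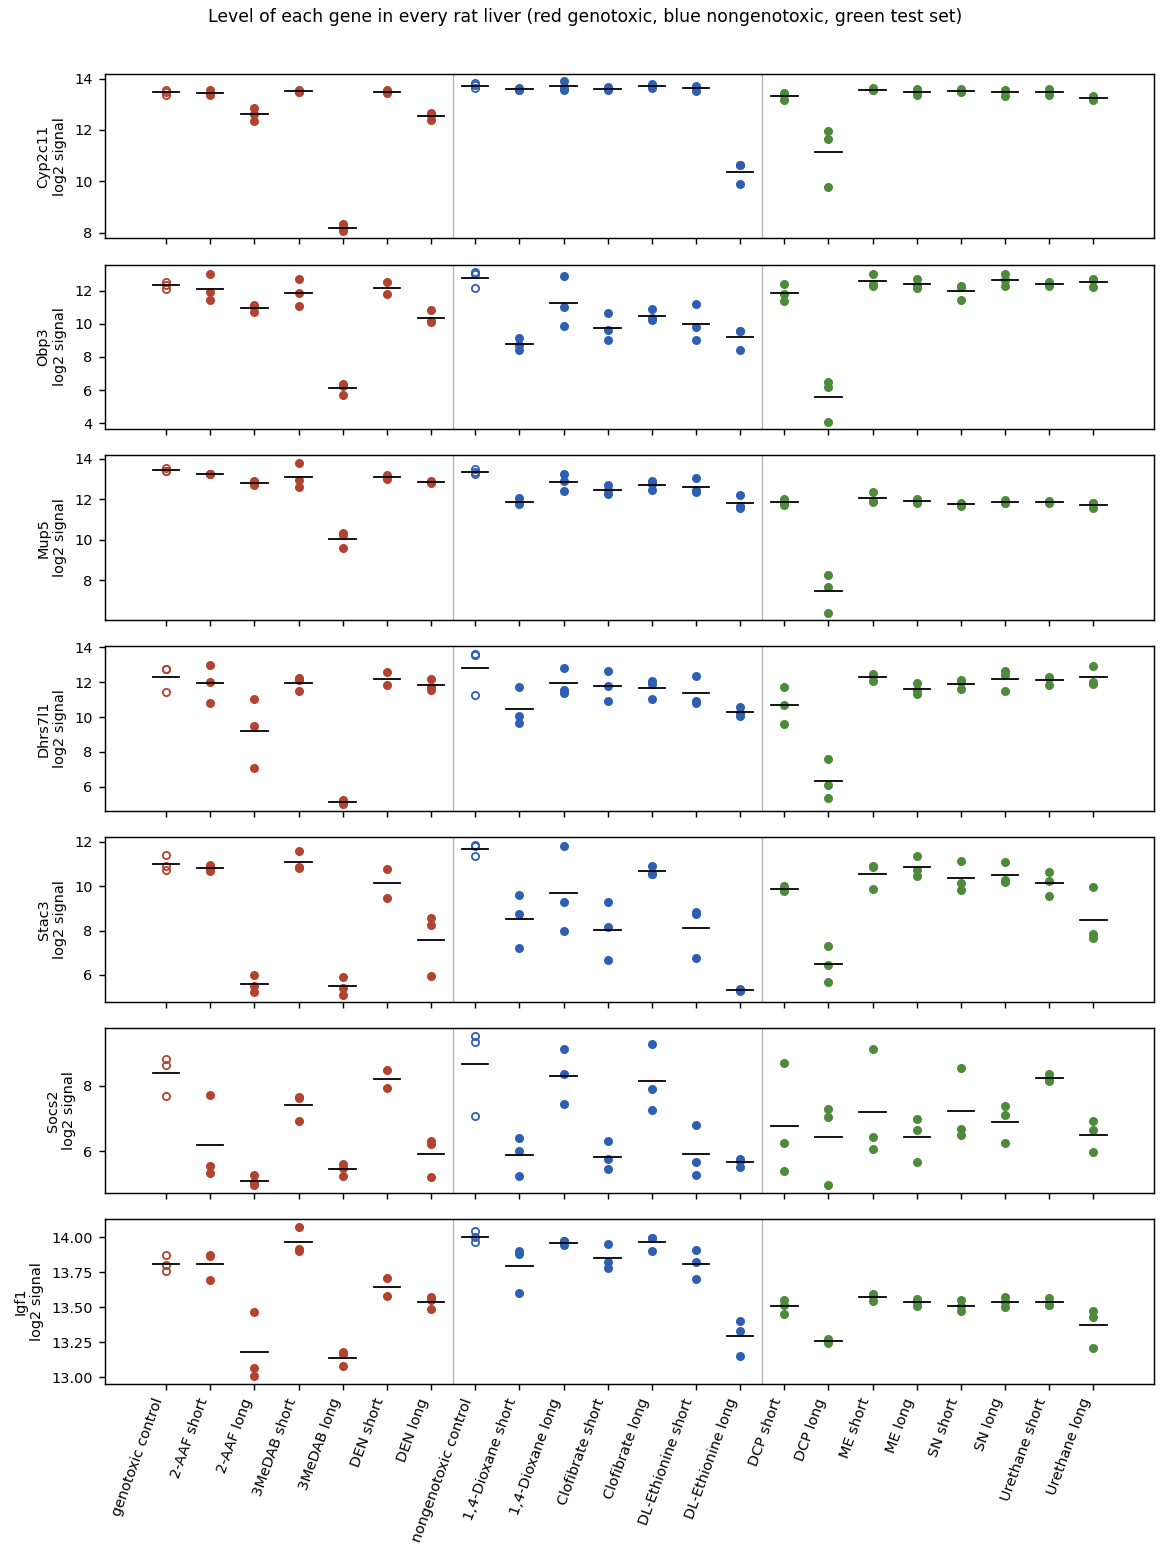
Log2 level of the 7 genes in each of the 65 rats, 1 point per rat, by group, with the mean of each group as a bar. Cyp2c11 and Igf1 are tight within groups, whereas Socs2, Stac3 and Dhrs7l1 scatter, and 3MeDAB long and DCP long stand lowest in their sets for Cyp2c11, Obp3, Mup5 and Dhrs7l1.

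Socs2, the feedback inhibitor, was low in the long groups of every genotoxic compound and in the short groups of every nongenotoxic one. It read 7.67, 8.83 and 8.62 in the genotoxic control and 7.09, 9.33 and 9.53 in the nongenotoxic control, so replicate 1 was the lowest of each control. In the 3 genotoxic long groups it read 5.28, 4.97 and 5.04 with 2-AAF, 5.24, 5.48 and 5.59 with 3MeDAB and 6.31, 6.23 and 5.20 with DEN. Every rat of these groups lay below every control rat. The differences were -3.28 ± 0.57, -2.94 ± 0.57 and -2.46 ± 0.57.

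Socs2 was also low in the nongenotoxic short groups. It read 6.00, 6.39 and 5.24 with 1,4-Dioxane, 5.76, 5.45 and 6.30 with Clofibrate and 6.80, 5.68 and 5.26 with DL-Ethionine, all below the 3 control rats. The differences were -2.77, -2.82 and -2.74 (SE 0.57 each). In the long groups it stood at 8.36, 9.12 and 7.44 with 1,4-Dioxane and 9.27, 7.89 and 7.26 with Clofibrate, within the range of the control. DL-Ethionine long stayed low at 5.51, 5.75 and 5.70. In 2-AAF short the rats split, with replicate 1 at 7.70 and the others at 5.34 and 5.53, for a difference of -2.18 ± 0.57. That call was lost without 2-AAF short replicate 2 or 3 or genotoxic control replicate 2 or 3 (differences with 1 rat left out from -2.94 to -1.76). The SD within a group exceeded 1 in 7 of 22 groups for Socs2.

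Igf1 was even within groups, with a median SD of 0.055. Its strongest probe set read 13.87, 13.76 and 13.80 in the genotoxic control and 13.96 to 14.05 in the nongenotoxic control. It read 13.16, 13.18 and 13.08 in 3MeDAB long, 13.47, 13.01 and 13.06 in 2-AAF long and 13.40, 13.15 and 13.33 in DL-Ethionine long. Each of these 9 rats was below all 3 rats of its control. The differences were -0.67, -0.63 and -0.71 (SE 0.10 each), or 1.59-fold lower in 3MeDAB long and 1.64-fold in DL-Ethionine long. DEN long was lower by a smaller amount, -0.28 ± 0.10, a call lost whichever single rat was left out.

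The size of the Igf1 difference depended on the probe set. The 3 sets had means of 13.62, 13.09 and 11.44 and SDs of 0.23, 0.45 and 0.69 over all arrays. Their order across rats was nearly the same, with r from 0.9479 to 0.9791 over 65 arrays. In the same order, the 3 sets gave -0.67, -1.49 and -2.08 in 3MeDAB long, in DL-Ethionine long -0.71, -1.32 and -2.22, and in 2-AAF long -0.63, -1.06 and -1.57. The set with the highest mean gave the smallest difference in each of the 3 groups. Whether it is compressed near the top of its range was not tested.

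**Figure D3:**
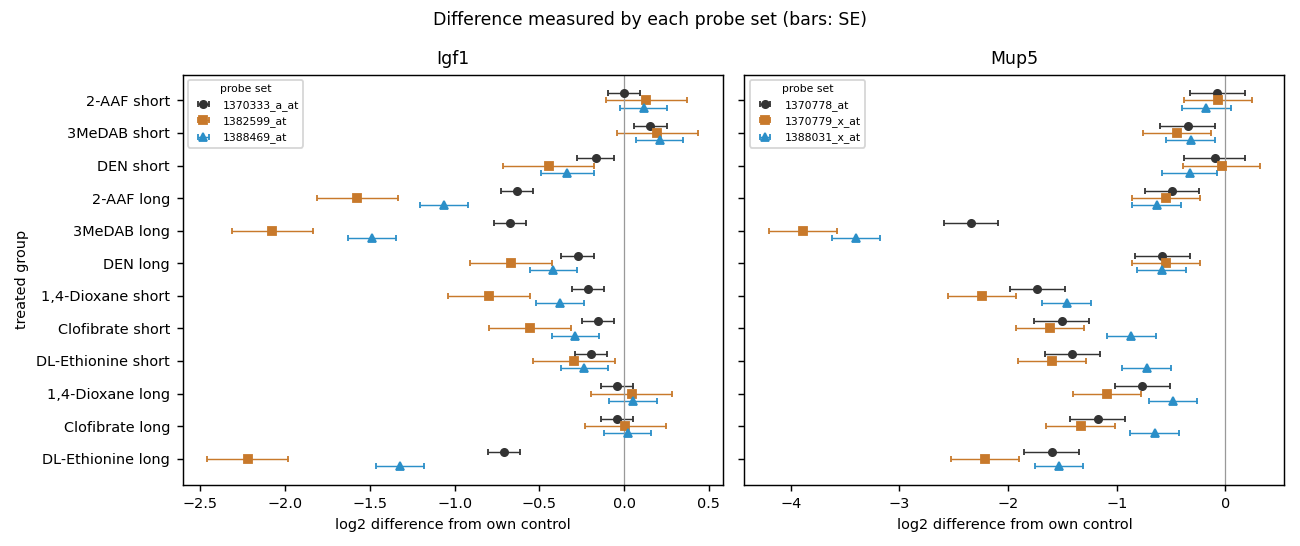
Log2 difference from the control of the same set for each probe set of Igf1 and of Mup5 in the 12 treated training groups. In 3MeDAB long the Igf1 sets lie at -0.67, -1.49 and -2.08 and the Mup5 sets at -3.40, -3.89 and -2.34.

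Cyp2c11, the male steroid hydroxylase, was even between rats in most groups and was low in the 3 genotoxic long groups and in DL-Ethionine long. It read 13.34, 13.49 and 13.55 in the genotoxic control and 13.62, 13.73 and 13.82 in the nongenotoxic control. In 3MeDAB long it read 8.06, 8.20 and 8.33, a difference of -5.26 ± 0.13 or 38.4-fold. In DL-Ethionine long it read 10.61, 10.63 and 9.88, a difference of -3.35 ± 0.13 or 10.2-fold. Smaller differences were seen in 2-AAF long, with rats at 12.84, 12.36 and 12.60 (-0.86 ± 0.13), and in DEN long, at 12.38, 12.65 and 12.59 (-0.92 ± 0.13). No rat of these 4 groups overlapped its control.

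In the 8 other treated training groups Cyp2c11 differed from the control by -0.15 to 0.05. That includes the nongenotoxic short groups, in which Obp3, Stac3 and Socs2 were low: 1,4-Dioxane short read 13.62, 13.56 and 13.54. The median SD within groups was 0.11, and only DCP long had an SD above 1.

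The largest differences of Obp3 from its control were in 3MeDAB long, DL-Ethionine long and the nongenotoxic short groups. Obp3 read 12.51, 12.11 and 12.36 in the genotoxic control and 12.17, 13.12 and 13.00 in the nongenotoxic control. In 3MeDAB long it fell to 6.36, 6.26 and 5.73, a difference of -6.21 ± 0.55. These rats lie around log2 6.03, the level of the filter in training, so the size of the difference is not exact. In 1,4-Dioxane short it read 9.12, 8.72 and 8.44 (-4.00 ± 0.55), in Clofibrate short 9.64, 10.66 and 9.02 (-2.99 ± 0.55) and in DL-Ethionine short 9.82, 11.21 and 9.02 (-2.75 ± 0.55). All 9 of these rats lay below the control. DL-Ethionine long was at 9.59, 9.58 and 8.45 (-3.56 ± 0.55). In 1,4-Dioxane long the rats ran from 9.87 to 12.91, so that group spanned both levels. The second probe set of Obp3 correlated with the first at r = 0.9803 and gave -7.59 ± 0.76 in 3MeDAB long.

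Mup5, like Obp3, Socs2 and Dhrs7l1, was below its control mean in all 12 groups. Its control rats read 13.55, 13.39 and 13.38 in the genotoxic and 13.48, 13.33 and 13.23 in the nongenotoxic set. In 3MeDAB long it read 10.31, 10.21 and 9.60 (-3.40 ± 0.22, or 10.6-fold), and in DL-Ethionine long 12.21, 11.67 and 11.55 (-1.53 ± 0.22). In 1,4-Dioxane short it read 12.07, 11.77 and 11.81 (-1.46 ± 0.22). None of these 9 rats overlapped its control. The 3 probe sets of Mup5 gave -3.40, -3.89 and -2.34 in 3MeDAB long, and -1.46, -2.24 and -1.73 in 1,4-Dioxane short. Of the 12 probe sets of the 7 genes, 11 passed the filter on low values in the test set. The exception was the dimmest Mup5 set, with a mean of 4.74. Sets whose names end in _x_at or _a_at can share probes between family members, so Obp3 and Mup5 are not fully separate measurements.

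Dhrs7l1, a member of the short-chain dehydrogenase family, was low in 3MeDAB long. It read 11.47, 12.74 and 12.77 in the genotoxic control and 5.13, 5.03 and 5.23 in 3MeDAB long, a difference of -7.20 ± 0.71. The 3MeDAB long rats lie below log2 6.03, the level a gene had to exceed to be tested, so the size of the difference is not exact. In 2-AAF long the rats spread over 11.07, 9.50 and 7.08 (-3.11 ± 0.71), the largest SD of the gene at 2.01. With 1 rat left out that difference ranged from -4.04 to -2.04, and the call was kept. In DL-Ethionine long it read 10.24, 10.57 and 10.05 against 11.30, 13.63 and 13.54 in the control (-2.54 ± 0.71). Replicate 1 of that control was more than 2 log2 units below the other 2, as it was for Socs2. In 1,4-Dioxane short it read 10.08, 9.65 and 11.71 (-2.34 ± 0.71), which overlapped the control and was not called without 1,4-Dioxane short replicate 1 or 2 or control replicate 2 or 3 (differences from -3.11 to -1.93).

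Stac3, better known as an adaptor of muscle excitation-contraction coupling, fell below the filter level of log2 6.03 in 3 long groups. It read 11.38, 10.89 and 10.73 in the genotoxic control, 6.02, 5.49 and 5.22 in 2-AAF long and 5.92, 5.12 and 5.42 in 3MeDAB long. The differences were -5.43 ± 0.71 and -5.52 ± 0.71. In DL-Ethionine long it read 5.27, 5.37 and 5.31 against 11.33, 11.79 and 11.86 in its control, a difference of -6.35 ± 0.71. All 9 rats of these 3 groups lie below log2 6.03, so these sizes are not exact. DEN long was uneven at 8.26, 8.57 and 5.94 (-3.41 ± 0.71).

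Stac3 was also low, and scattered, in the nongenotoxic short groups, at 7.21, 8.73 and 9.58 with 1,4-Dioxane, 8.16, 6.66 and 9.28 with Clofibrate and 6.75, 8.85 and 8.74 with DL-Ethionine. Every one of these rats lay below every control rat. In 2-AAF short and 3MeDAB short it stood at 10.97, 10.68 and 10.76 and at 10.86, 11.55 and 10.82, which overlapped the control. Its SD exceeded 1 in 6 of the 22 groups, as did that of Dhrs7l1.

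Other calls against the control also rested on single rats. Mup5 in 2-AAF long (-0.63 ± 0.22) was called in only 1 of 6 fits without 1 rat, the one without 2-AAF long replicate 1 (differences from -0.67 to -0.58), and Mup5 in Clofibrate short (-0.87 ± 0.22) in none. Stac3 was not called in 1,4-Dioxane short without its replicate 1 or in Clofibrate short without its replicate 2. Socs2 was not called in Clofibrate short without its replicate 2 or control replicate 2 or 3, nor in DL-Ethionine short without its replicate 3 or control replicate 3. Obp3 was not called in DEN long without its replicate 1, nor in DL-Ethionine short without its replicate 3.

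Long and short groups differed in opposite directions between compounds. After 3MeDAB all 7 genes were called lower in long than in short (19.4% of all genes were called lower), with a median of -5.31. After 2-AAF 4 were called lower (17.5%), after DEN 4 (11.7%) and after DL-Ethionine 4 (21%). After 1,4-Dioxane 3 genes were called higher in long than in short, where 3.07% of all genes were, and after Clofibrate 2 were (1.34%). None of the 7 was called lower with either compound. Socs2 was higher in long by 2.43 ± 0.57 with 1,4-Dioxane and by 2.31 ± 0.57 with Clofibrate. Obp3 was higher by 2.52 ± 0.55 and Mup5 by 0.98 ± 0.22 with 1,4-Dioxane, and Stac3 by 2.63 ± 0.71 with Clofibrate.

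These training comparisons of long with short use the same arrays as those with the controls, so they add no separate evidence. The 1,4-Dioxane calls of Obp3, Mup5 and Socs2 were lost without 1,4-Dioxane long replicate 2, the rat in which all 3 genes and Stac3 were highest of its group. Obp3 then differed by 1.70, Mup5 by 0.78 and Socs2 by 2.02. Socs2 was also lost without 1,4-Dioxane short replicate 3. The Clofibrate call of Stac3 was lost without any rat but Clofibrate short replicate 3, and that of Socs2 without Clofibrate long replicate 1 or Clofibrate short replicate 1 or 2. Dhrs7l1 was not called for 2-AAF without 2-AAF long replicate 3 (-1.66). With DEN, Obp3 was not called without DEN long replicate 1 or 2 or either DEN short rat, Stac3 without DEN long or short replicate 3, and Socs2 without DEN short replicate 3.

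**Figure D4:**
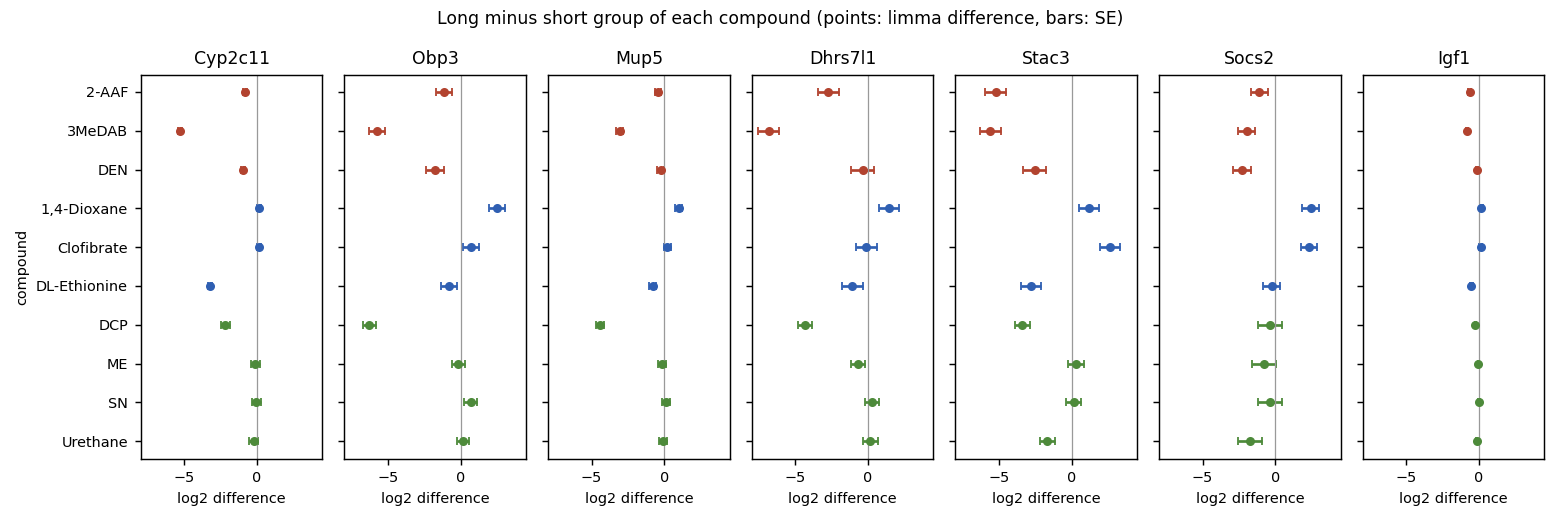
Log2 difference of long minus short for each of the 10 compounds and 7 genes. The most negative values are those of Dhrs7l1 with 3MeDAB (-6.83), Obp3 with DCP (-6.29) and Obp3 with 3MeDAB (-5.77). Those of 1,4-Dioxane are above 0 for all 7 genes, and those of SN lie between -0.34 and 0.68.

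In the test set, DCP long had much lower levels of the male genes than ME, SN and Urethane long. Obp3 read 6.18, 4.08 and 6.47 in DCP long, whereas the 9 other long rats read 12.16 to 13.03. Mup5 read 7.67, 6.39 and 8.27 against 11.57 to 12.01, and Dhrs7l1 read 6.10, 5.34 and 7.60 against 11.31 to 12.92. Cyp2c11 read 11.63, 9.78 and 11.97 against 13.18 to 13.59. Replicate 2 was the lowest rat for each of these 4 genes.

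Of the 7 genes 6 were called lower in DCP long than in the mean of the 3 other compounds, and 5 did so without overlap (19.9% of all 10213 genes tested were called lower, 11.6% without overlap). The differences were -6.96 ± 0.35 for Obp3 (limma, adjusted p = 2.14e-10), -5.69 ± 0.40 for Dhrs7l1 (adjusted p = 2.46e-08), -4.39 ± 0.23 for Mup5 (adjusted p = 2.14e-10), -3.46 ± 0.43 for Stac3 (adjusted p = 5.51e-06) and -2.26 ± 0.26 for Cyp2c11 (adjusted p = 2.98e-06). The mean of Obp3 in DCP long, 5.58, is below log2 5.65, the level of the filter in the test set, so the size of its difference is not exact. Igf1 was lower by a small amount, -0.22 ± 0.05 (adjusted p = 0.00179), with overlap, and its other probe sets gave -0.47 and -0.68. Socs2 differed by -0.19 ± 0.67 (adjusted p = 0.846), an estimate too wide to place it. These values come from rats outside the training sets, but the genes were named with results of the whole series known.

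Within DCP the same 6 genes were lower in long than in short (14.2% of all genes were called lower). Obp3 fell from 11.39, 11.83 and 12.39 in the short group, a difference of -6.29 ± 0.43 (limma, adjusted p = 2.99e-09). Mup5 fell from 11.73, 11.80 and 12.03, a difference of -4.41 ± 0.28 (adjusted p = 9.51e-10). Dhrs7l1 fell from 9.59, 10.68 and 11.74, a difference of -4.33 ± 0.49 (adjusted p = 2.12e-06). Stac3 fell from 9.80, 10.00 and 9.84 to 7.30, 6.44 and 5.70, a difference of -3.40 ± 0.52 (adjusted p = 4.92e-05). Cyp2c11 fell from 13.16, 13.35 and 13.42, a difference of -2.18 ± 0.32 (adjusted p = 3.22e-05). Igf1 fell from 13.52, 13.55 and 13.45 to 13.27, 13.24 and 13.27, a difference of -0.24 ± 0.06 (adjusted p = 0.00313). The short and long rats did not overlap for any of the 6 (18.8% of all genes). The change from short to long differed from the mean change of the 3 other compounds for 5 genes, all but Igf1 and Socs2 (11% of all genes called lower).

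The estimate for Socs2 in DCP was wide. It read 8.69, 6.24 and 5.38 in the short and 7.27, 7.03 and 4.95 in the long group, a difference of -0.36 ± 0.83 (limma, adjusted p = 0.769). Fits without 1 rat gave -1.05 to 0.61, and the SD within the short group, 1.72, was the largest of the gene. In DCP short against the 3 other compounds, 1 of the 7 genes was called lower, where 28.5% of all genes were. That was Dhrs7l1, at -1.44 ± 0.40 (adjusted p = 0.00743), a call lost without DCP short replicate 1 (adjusted p = 0.111).

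Few of the 7 genes were called between ME, SN and Urethane. Against the mean of the 3 others, 3 genes were called higher in ME long (1.63% of all genes), 4 in SN long (3.24%) and 3 in Urethane long (6.06%), but that mean includes DCP. In SN long, Dhrs7l1 (differences with 1 rat left out from 1.86 to 2.46) was not called without SN long replicate 1, nor Stac3 (1.63 to 2.16) without SN long replicate 1 or 3. With DCP left out, a comparison chosen after the values were seen, 0 of the 7 were called for ME long (0.215% of all genes called) and SN long (0.519%). Obp3 then differed by -0.19 ± 0.37 in ME long (limma, adjusted p = 0.889) and by 0.18 ± 0.37 in SN long (adjusted p = 0.913). In their short groups none of the 7 was called for ME (4.5% of all genes lower, 4.75% higher), SN (3.45% lower, 10.8% higher) or Urethane (4.13% lower, 3.59% higher). The change from short to long was called higher than in the 3 others for 1 gene with ME (1.25% of all genes), 2 with SN (1.42%) and 2 with Urethane (4.27%), and for 0 with DCP left out (1.39%, 0.441% and 4.03% called in either direction).

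Urethane long differed from ME and SN long in Stac3 and, by little, in Igf1. Stac3 read 7.83, 7.66 and 9.95 against 11.36, 10.43 and 10.73 with ME and 11.10, 10.17 and 10.29 with SN, without overlap. With DCP left out the difference was -2.20 ± 0.45 (limma, adjusted p = 0.00424), and 2 of the 7 genes were called (10.3% of all genes). Igf1 read 13.21, 13.47 and 13.43 against means of 13.54 in ME long and 13.53 in SN long and was lower by 0.17 on the log2 scale (SE 0.05, adjusted p = 0.0487). Leaving out 1 of the 9 rats ended that call in 8 of 9 fits, all but the one without Urethane long replicate 2, and without Urethane long replicate 1 the difference was -0.084 (adjusted p = 0.356). Stac3 was called in all 9, at -2.93 to -1.79. Long against short, 1 gene was called lower with Urethane, Stac3 at -1.67 ± 0.52 (adjusted p = 0.0394, 5.87% of all genes lower), a call lost in 4 of 6 fits without 1 rat (Urethane short or long replicates 1 or 2, adjusted p up to 0.154). With ME 0 of the 7 were called (8.23% of all genes lower, 8.77% higher), and with SN 0 (3.15% lower, 1.7% higher).

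Ordered by group mean inside each set, few neighbouring groups were separate. For Cyp2c11 in the genotoxic set 3MeDAB short (13.51), DEN short (13.49), the control (13.46) and 2-AAF short (13.44) overlapped. A step then led to 2-AAF long (12.60) and DEN long (12.54), which overlapped, and a second step to 3MeDAB long (8.20). In the nongenotoxic and test sets 1 step each set off the lowest group, DL-Ethionine long at 10.38 and DCP long at 11.13. Obp3 had 1 separate step of 6 in the genotoxic set, 0 of 6 in the nongenotoxic set and 1 of 7 in the test set. For Socs2 and Igf1 in the test set 0 of 7 neighbours were separate. The most separate steps were those of the genotoxic set for Igf1, 4 of 6, and for Mup5, 3 of 6.

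The lists of pathway genes here and below were written from textbook knowledge, but with earlier results of these arrays known. Their adjusted p-values are therefore not independent tests. The receptor gene and its signalling partners were called in part. Of 11 genes listed and tested, 3 were called lower and 3 higher in 3MeDAB long, 3 lower in 2-AAF long, 2 lower and 1 higher in DEN long, and 3 lower and 2 higher in DL-Ethionine long. Of all genes, 17.7%, 16.1%, 6.31% and 23% were called lower in these 4 groups, and 35.9%, 16%, 10.4% and 30% higher. Ghr, the receptor, differed by -1.76 in 3MeDAB long, -1.53 in 2-AAF long, -0.82 in DEN long and -0.70 in DL-Ethionine long (SE 0.16 each; limma, adjusted p = 2.92e-10, 3.74e-08, 0.000498 and 0.000587). It read 12.28, 12.34 and 12.31 in the genotoxic control and 10.67, 10.63 and 10.37 in 3MeDAB long. In the test set Ghr read 11.51 to 11.55 in DCP long and 11.30 to 11.56 in Urethane long, and 11.90 to 12.11 in ME and SN long. Against the mean of the 3 other compounds Ghr differed by -0.29 ± 0.06 in DCP long (adjusted p = 0.00107) and by -0.36 ± 0.06 in Urethane long (adjusted p = 0.000712). Cyp2c11 was not called in Urethane long (0.57 ± 0.26, adjusted p = 0.162), but that mean includes DCP. With DCP left out Cyp2c11 differed there by -0.21 ± 0.28 (limma, adjusted p = 0.676). Its Urethane long rats read 13.18 to 13.31, below those of ME long (13.35 to 13.59) and SN long (13.34 to 13.54). Jak2 rose by 0.70 ± 0.15 and Stat5b by 0.59 ± 0.15 in 3MeDAB long, whereas Stat5b fell by 0.92 in DL-Ethionine long (SE 0.15, adjusted p = 3.84e-06) and by 0.81 in DL-Ethionine short (SE 0.15, adjusted p = 0.00192). Bcl6, a repressor that opposes STAT5b in male liver, rose by 2.42 ± 0.73 in DEN long and 1.81 ± 0.73 in DL-Ethionine long. In DCP long against the other test compounds 3 of 10 were called lower and 0 higher (19.9% and 17.8% of all genes). Among those called lower was Bcl6 at -2.74 ± 0.59 (limma, adjusted p = 0.00137).

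Cish, the other feedback inhibitor, was called lower in 2-AAF short (-1.69 ± 0.43), 3MeDAB short (-1.73 ± 0.43), 2-AAF long (-2.09 ± 0.43), 3MeDAB long (-1.34 ± 0.43) and DEN long (-2.33 ± 0.43) (limma, adjusted p from 0.000205 to 0.047). In the nongenotoxic short groups, in which Socs2 was low, Cish differed from the control by -0.44, -1.19 and -0.39 and was not called. Whether the 2 inhibitors differ between those groups was not tested. Replicate 1 was again the lowest of the genotoxic control, at 6.63 against 8.43 and 8.49.

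Among 8 genes of the IGF axis, Igfals, the partner that holds IGF1 in the circulation, was lower in 3MeDAB long (-2.90 ± 0.28, limma, adjusted p = 6.8e-10), 2-AAF long (-1.99 ± 0.28, adjusted p = 4.16e-06) and DL-Ethionine long (-1.25 ± 0.28, adjusted p = 0.000402). Igfbp1, a binding protein that insulin represses, was higher in all 3 nongenotoxic short groups, by 1.35 to 1.55 (SE 0.32 each, adjusted p = 0.00593, 0.00679 and 0.0132), where 1.82%, 1.54% and 2.1% of all genes were called higher. It was highest above its control in DL-Ethionine long, by 1.82 ± 0.32. In the genotoxic set the mean of Igfbp1 was also above that of the control (11.89) in every treated group, from 12.11 in 3MeDAB short to 13.11 in 2-AAF short. The 2-AAF short rats read 13.10, 12.86 and 13.38 against 11.67, 11.97 and 12.02 in the control. Igfbp2 rose by 1.63 ± 0.35 in 1,4-Dioxane short and by 1.36 ± 0.35 in DL-Ethionine long. In DCP long against the other compounds Igfals differed by -1.34 ± 0.19 (adjusted p = 3.09e-05), Igfbp2 by 1.36 ± 0.25 and Igf2r by 0.73 ± 0.06 (17.8% of all genes called higher).

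Of 18 other male-predominant genes listed, 10 were measured and tested. In 3MeDAB long 9 were called lower and 1 higher (17.7% and 35.9% of all genes), with a median of -1.35 where that of all genes was 0.12, and in DL-Ethionine long 9 were called lower and 1 higher (23% and 30%), with a median of -1.91 (all genes 0.03). The deepest in 3MeDAB long were Car3, a carbonic anhydrase (-5.03 ± 0.41), and Ust5r, a transporter (-3.56 ± 0.23). In DL-Ethionine long they were Hsd3b5, a steroid dehydrogenase (-3.82 ± 0.26), and Car3 (-3.26 ± 0.41). The cytochromes Cyp2c13 and Cyp2a2 differed by -3.20 and -3.06 in DL-Ethionine long and by -1.13 and -2.37 in 3MeDAB long. Cyp3a18 fell by 1.49 in 3MeDAB long. Dhrs7 was the 1 gene higher in both, by 0.58 ± 0.23 and 1.12 ± 0.23.

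In 2-AAF long 5 of the 10 male genes were lower and 0 higher, with a median of -0.25 (16.1% of all genes lower). In DEN long 0 were called, with a median of -0.14 (6.31% of all genes lower). In each of the nongenotoxic short groups 1 gene, Hsd3b5, was lower, by -0.89, -1.08 and -1.03 (SE 0.26 each). In DCP long against the other compounds 8 were lower and 1 higher (19.9% and 17.8% of all genes), with a median of -0.36, led by Hsd3b5 (-1.98 ± 0.18, adjusted p = 2.71e-07) and Sult1e1, estrogen sulfotransferase (-1.19 ± 0.14, adjusted p = 5.15e-06).

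Of 11 genes of the female pattern listed, 9 were on the array and 6 passed the filter in training. In 3MeDAB long 1 of the 6 was called higher (35.9% of all genes were), Cyp2c12 (0.57 ± 0.17, limma, adjusted p = 0.00501), and 0 lower. In 2-AAF long 2 were higher (16% of all genes), Cyp2c12 (0.64 ± 0.17, adjusted p = 0.00451) and Cyp2a1 (1.21 ± 0.23), and in DL-Ethionine long 2 were higher (30%) and 2 lower (23%), among them Cyp2c7 (-3.05 ± 0.19, adjusted p = 9.66e-15). Sult2a6 was higher in the 3 nongenotoxic short groups, by 2.56 to 2.69 (SE 0.41). The female marker A1bg read 4.93 to 5.22 in the genotoxic control and did not pass the filter in training. Cyp2c12, which is known as a female-specific gene, read 12.50 to 13.04 in these male controls. Whether its probe set picks up other Cyp2c transcripts was not tested.

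**Figure D5:**
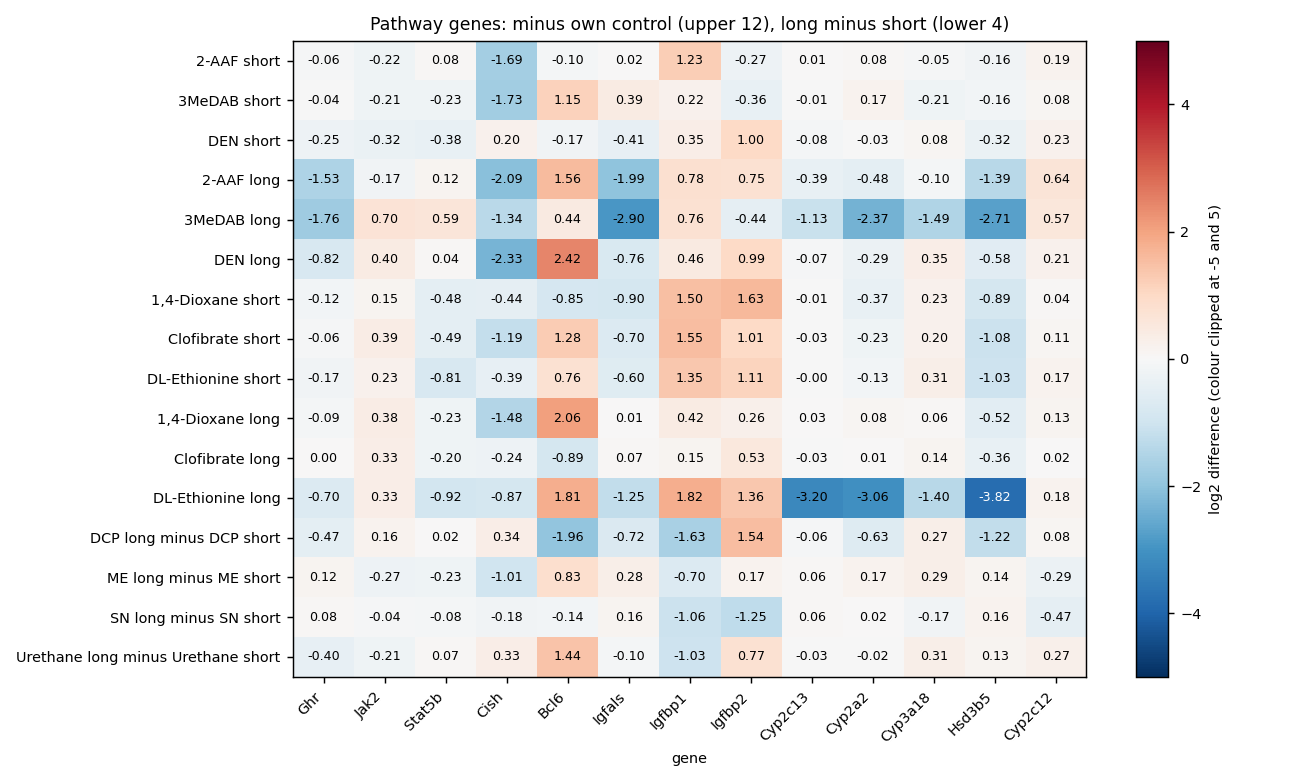
Log2 differences of 13 genes of the growth hormone pathway that are not among the 7, in 12 training groups against their own control and in long minus short of the 4 test compounds. Ghr lies at -1.76 in 3MeDAB long and -1.53 in 2-AAF long, and Igfals at -2.90 and -1.99. Igfbp1 is positive in all 12 training groups.

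Correlations between the 7 genes differed by pair and by set. With each array's value taken relative to the mean of its set, the 21 pairs had r from 0.3195 to 0.9595 over 65 arrays (median 0.6835). Without 3MeDAB long, DL-Ethionine long and DCP long, over 56 arrays, r ran from 0.2553 to 0.8631 (median 0.4808). Within sets the median r was 0.7209 in the genotoxic (20 arrays), 0.6733 in the nongenotoxic (21) and 0.7451 in the test set (24). In the test set Socs2 had r of 0.0526 with Dhrs7l1, 0.098 with Cyp2c11, 0.118 with Obp3 and 0.1484 with Mup5, and Spearman's rho from -0.1991 to 0.0287 for these 4. These points share the arrays, their normalization and the groups, so they describe and do not test. The genes nearest in pattern to the mean of the 7, among 11056, were F9, which encodes a coagulation factor (r = 0.903 over 65 arrays), Cpq, a carboxypeptidase (0.8995), C8g, a complement chain (0.8907), Itih1 (0.8841) and Sult1c2a (0.8823). The most opposite were Pdcl3 (r = -0.882), Vdac2 (-0.8795), the ribosomal protein genes Rpl11 (-0.8746) and Rps6 (-0.8719), and Pter (-0.8698). Without the 3 groups these values ranged from 0.7427 to 0.8334 and from -0.7913 to -0.6747.

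Markers of other cells were called in some of the groups in which the 7 genes were low. The shares of all genes called higher and lower there were 30% and 23% in DL-Ethionine long, 35.9% and 17.7% in 3MeDAB long, 10.4% and 6.31% in DEN long, 16% and 16.1% in 2-AAF long and 17.8% and 19.9% in DCP long. Of 9 macrophage markers, 8 were called higher and 1 lower in DL-Ethionine long, 7 higher and 1 lower in 3MeDAB long and 6 higher and 1 lower in DEN long. In 2-AAF long 7 were called lower and 0 higher. The mean level of the list was 10.78 to 11.22 in DL-Ethionine long (control 9.67 to 9.91), 10.55 to 10.95 in 3MeDAB long and 9.45 to 9.72 in 2-AAF long (control 10.09 to 10.34). In DCP long it was 9.36 to 9.45 and in DCP short 9.39 to 9.49. It was lower in the other long groups of the test set, at 8.89 to 9.10 with ME, 8.96 to 9.22 with SN and 8.50 to 9.21 with Urethane. The part of these cells in the result was not tested.

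The hepatocyte list itself was at 13.28 to 13.38 in 3MeDAB long (control 13.46 to 13.53), 13.55 to 13.63 in DL-Ethionine long (control 13.57 to 13.64) and 13.18 to 13.30 in DCP long (DCP short 13.38 to 13.46). Of its 11 genes, 3 were called lower and 3 higher in 3MeDAB long, 4 and 2 in DL-Ethionine long, and 4 and 1 in DCP long against the other compounds. Of 5 endothelial markers 4 were called higher in DL-Ethionine long and 4 in DCP long, and 0 in the 3 long genotoxic groups. Of 9 stellate cell and fibroblast markers, 4 were called higher in each of 2-AAF, 3MeDAB and DEN long, with 3, 2 and 0 lower. Of 3 cholangiocyte markers tested 1 was called higher in 3MeDAB long and 2 in DCP long, and 1 was higher and 2 lower in DL-Ethionine long, and of 6 leukocyte markers 2 were higher and 2 lower in both 3MeDAB long and DL-Ethionine long. The 1 pancreas marker that passed the filter was lower in all 4 of these training groups, with differences from -3.49 to -0.76. The signal of the Gapdh 3' probe set over its 5' set is a sign of RNA integrity. It was 0.24 to 0.39 log2 units in 3MeDAB long, 0.19 to 0.95 in 2-AAF long and 0.52 to 0.84 in DEN long (control 0.44 to 0.63). In DL-Ethionine long it was 0.59 to 0.86 (control 0.50 to 0.91) and in DCP long 0.33 to 0.60 (DCP short 0.55 to 0.68). Its part in the result was not tested either.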

How the data were processed

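Affymetrix rat arrays were hybridised with liver RNA, 1 array for each of 65 rats. The table holds log2 signals deposited by the authors for 31099 probe sets. According to the design text of the series the authors used RMA, in a version that is not given, and dropped 1 failed array. RMA subtracts background, normalizes by quantiles and summarises each probe set, which can compress differences of bright probe sets. The highest values of the arrays did not overlap between sets (15.7895 to 15.9207, 15.4231 to 15.5558 and 14.1916 to 14.7213), so sets are compared only within themselves. There is no read depth, and the number of arrays limits the precision. Groups come from the titles, per the labels.

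Of the probe sets, 20826 have a single gene symbol, 436 several and 9780 none, and 57 are controls. Where a gene (14217 in all) had several probe sets, the brightest on average stood for it. Genes entered the test when at least 2 arrays exceeded a filter level. In training it was log2 6.03, the median over the arrays of all sets, test set included. In the test set it was log2 5.65, the median over the test arrays alone. limma 3.58.1 in R 4.3.3 fitted a mean for each group with eBayes to the training sets (41 arrays, 27 residual degrees of freedom, prior 4.02, 11007 genes) and to the test set (24, 16, 2.95, 10213). Adjustment was Benjamini-Hochberg within a comparison, two-sided. Python 3.11.15 with matplotlib 3.10.9, pandas 2.3.3, numpy 2.4.6 and biopython 1.88 was also used.

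The members and lists were chosen with earlier results of these data known. The pathway lists were written from textbook knowledge of growth hormone action in rat liver. Named genes are the 7 members, 12 genes of the pathway and the 2 highest and 2 lowest called genes of a list in a comparison. Genes most like the members are the 5 highest and 5 lowest by r. Simulated data with 200 changed genes tested the fit. For Clofibrate long (11007 genes) it recovered 93% of log2 changes of 1 and 99% of those of 2 with 9 false calls. For DCP long (10213 genes) the rates were 98% and 100%, with 11 false calls. These rates are over the 200 changed genes. Recovery for the 7 members, with their own spread, was not tested. In Clofibrate long Obp3 differed from its control by -2.28 and was not called. Alternatives were quantile normalization of all columns, no filter, a filter at the 75th percentile (log2 7.99, or 7.70 in the test set), averaging a gene's probe sets, eBayes with trend and robust, only the compared arrays, a replicate block, each replicate or rat left out and DCP left out, for Igf1 and Stac3 in Urethane long also with 1 rat left out.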

Additional observations from a re-analysis of the deposited data

Results flagged for a closer look

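Within the test set, the change from short to long dosing was compared between compounds with an interaction term: long minus short of 1 compound minus the mean of the same difference in the other 3 (limma, adjusted p over 10213 genes). With DCP this term was called lower for 5 of the 7 genes, where 11% of all genes were called lower. It was -6.51 for Obp3 (adjusted p = 2.53e-08), -4.36 for Mup5 (adjusted p = 1.61e-08), -4.25 for Dhrs7l1 (adjusted p = 2.64e-05), -2.99 for Stac3 (adjusted p = 0.000995) and -2.05 for Cyp2c11 (adjusted p = 0.000427). In all 3 DCP long rats each of these genes lay below all 3 DCP short rats.

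The same term was called higher for Mup5 with ME (1.33, adjusted p = 0.039, 1.25% of all genes called higher), for Obp3 and Mup5 with SN (2.78, adjusted p = 0.00541, and 1.67, adjusted p = 0.0089, 1.42%) and for Obp3 and Mup5 with Urethane (2.07, adjusted p = 0.0154, and 1.36, adjusted p = 0.0143, 4.27%). Each of these 5 values sets 1 compound against a mean that includes DCP. With DCP left out none of the 5 was called. The call of Mup5 with ME was also lost in 15 of 24 fits that left out 1 rat, over which the term ranged from 1.16 to 1.49.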

How the results depend on the processing

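Numbers of called values changed by less than 1.5 times under quantile normalization, other filters, averaged probe sets, eBayes with trend and robust, and only the compared arrays. For the 7 genes against own control they were 33 to 40 (38 as reported) and for training long minus short 20 to 24 (24). The replicate block gave 41, 24, 17, 7 and 10 for the 5 families of comparisons and 88 and 89 for the pathway lists in training and test, against 38, 24, 17, 7, 10, 84 and 95, and it ended no call of the 7. Same-numbered rats did not deviate together (mean r 0.0058 in training and -0.0106 in the test set, over 0.1 in 45 of 260 and 11 of 84 pairs), so the numbers are not read as a pairing. With 1 replicate number left out everywhere the counts were 21 to 33 against control, 14 to 22 for training long minus short, 7 to 17 for test compounds, 5 to 9 for the interaction, and 46 to 76 and 41 to 84 for the pathway lists. Fewer arrays were fitted there.

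Medians of the 7 genes moved with quantile normalization in 3MeDAB long, to -5.54 against control and -5.60 against short, and with averaged probe sets in Clofibrate long minus short (0.33), DCP long (-3.13), ME long (1.00) and SN long (1.19). With DCP left out the medians were 0.084 in ME long, 0.18 in SN long and -0.16 in Urethane long, and 5 single values turned sign and were not called: Obp3 in ME long (-0.19), Mup5 in Urethane long (-0.15), and the interaction of Mup5 with ME (-0.14), of Mup5 with Urethane (-0.11) and of Obp3 with Urethane (-0.11). With 1 rat or 1 replicate number left out, the medians against control ranged over -0.32 to -0.030 in 2-AAF short, -0.52 to 0.071 in 3MeDAB short, -3.11 to -1.52 in 1,4-Dioxane short, -1.81 to -0.77 in Clofibrate short, -2.21 to -0.87 in DL-Ethionine short, -1.13 to -0.35 in 1,4-Dioxane long, -1.28 to -0.53 in Clofibrate long and -3.52 to -2.55 in DL-Ethionine long. For long minus short they ranged over 0.60 to 1.92 with 1,4-Dioxane, 0.16 to 0.34 with Clofibrate, -1.31 to -0.52 with DL-Ethionine and -3.85 to -3.01 with DCP. Against the other test compounds they ranged over -0.53 to -0.18 in DCP short, -3.87 to -2.88 in DCP long and 0.83 to 1.62 in ME long. The causes were not tested. Where Socs2, Stac3, Dhrs7l1 or Obp3 was near or below the level of the filter, signal over background limits what a difference can show.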
